A study of Mus musculus with 2 samples.

Results

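The transcripts of the NF-kB transcription factors and of the IkB proteins that bind them were followed in bone marrow-derived macrophages of C57BL/6J mice. The group holds 10 genes of 55536 annotated genes, chosen by name with earlier results of these data known. It has 5 Rel family subunits (Rela, Relb, Rel, Nfkb1 and Nfkb2). The rest are 3 classical IkB inhibitors (Nfkbia, Nfkbib and Nfkbie) and 2 nuclear IkB proteins (Nfkbiz and Bcl3). All 10 were found in both libraries. The study has a single group, polyA plus RNA in 2 libraries numbered as biological replicates that carry the same donor identifier. Cells received lipid A at 100 ng/ml for 12 h, were kept without it for 12 h, and received 100 ng/ml again for 120 min before they were taken. One field of the labels calls the agent lipid A and others lipoprotein A. No untreated or singly treated sample was analysed here, so nothing below compares a condition with another. The age and sex of the animals were not collected, and values come from bulk RNA, in which fewer cells of a type and less RNA per cell cannot be told apart.

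Lipid A, the membrane anchor of lipopolysaccharide, is sensed by the Toll-like receptor TLR4, whose signal makes the IkB kinases phosphorylate IkB proteins. Phosphorylated IkB is degraded and frees Rel family dimers to enter the nucleus and bind kB sites in DNA. Several genes of the system, Nfkbia among them, are known targets of NF-kB themselves, which gives the pathway its feedback loops. Nuclear IkB proteins such as IkBζ and Bcl-3 act on chromatin as partners of dimers bound to DNA rather than as cytoplasmic inhibitors.

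Replicate 1 had 45341960 expected counts in annotated genes and replicate 2 had 32087664. All 10 macrophage markers reached 10 TPM (a level per transcript length and per library total) in both libraries, and all 5 T cell and all 5 stromal markers were under 1 TPM in both. Of 5 B cell markers 4 were under 1 TPM, the exception being Cd22. Neutrophil markers had a summed level of 63.5 TPM in replicate 1 and 6.58 TPM in replicate 2. Levels below are given for replicate 1 and replicate 2 in that order, with the mean ± SD of both. The fewest reads behind any whole-gene value of the 10 genes were 1978, where counting error alone is 2.25%. Values of single transcripts can rest on far fewer, such as 4.18 expected reads for a short Rela transcript in replicate 1.

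The promoters and transcript ends that the results refer to are printed first. RefSeq windows of 300 bases (assembly GRCm38.p6, 250 bases before a start and 50 from it on) were matched for 7 of the 10 genes; Relb, Nfkb1 and Nfkbiz had none. Capitals mark matches to the 10-base kB consensus GGGRNWYYCC on either strand (R is A or G, N any base, W A or T, Y C or T). The 250 upstream bases of the windows of Nfkbia, Rel and Nfkbie are shown because each holds a match before the start of the transcript that led its gene in these libraries.
Nfkbia upstream region, chr12:55492648-55492897, minus strand: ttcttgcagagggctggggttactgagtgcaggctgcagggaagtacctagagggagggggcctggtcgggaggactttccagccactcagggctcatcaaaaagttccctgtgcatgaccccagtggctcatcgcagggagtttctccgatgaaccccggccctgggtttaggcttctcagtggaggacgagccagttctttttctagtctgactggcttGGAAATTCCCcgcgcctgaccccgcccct
Rel upstream region, chr11:23770970-23771219, minus strand: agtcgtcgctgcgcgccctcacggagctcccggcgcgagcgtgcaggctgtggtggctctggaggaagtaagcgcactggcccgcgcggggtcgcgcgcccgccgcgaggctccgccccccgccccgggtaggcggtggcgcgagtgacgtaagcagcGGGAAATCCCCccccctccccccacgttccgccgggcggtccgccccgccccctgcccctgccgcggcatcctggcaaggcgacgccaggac
Nfkbie upstream region, chr17:45555450-45555699, plus strand: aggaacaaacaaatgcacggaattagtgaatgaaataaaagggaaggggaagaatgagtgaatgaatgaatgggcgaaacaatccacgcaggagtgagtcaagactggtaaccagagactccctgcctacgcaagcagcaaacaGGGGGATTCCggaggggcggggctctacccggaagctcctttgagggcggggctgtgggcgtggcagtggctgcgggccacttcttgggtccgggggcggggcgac

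For Nfkb2, whose transcripts begin at separate places, 30 bases are shown around matches near the first start (both upstream of it) and just after the second start.
Nfkb2 first start, distal match, chr19:46304688-46304717, plus strand: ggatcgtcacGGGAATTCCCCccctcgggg
Nfkb2 first start, proximal match, chr19:46304716-46304745, plus strand: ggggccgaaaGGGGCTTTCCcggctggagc
Nfkb2 second start, chr19:46305695-46305724, plus strand: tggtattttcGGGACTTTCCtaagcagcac

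A kB consensus match was present in 5 of the 7 genes with a window: Rel, Nfkb2, Nfkbia, Nfkbie and Bcl3. Counted by window it was 7 of 9, and Nfkb2 has several windows, among them an overlapping pair that shares a match. The shares that follow are per window, and no share per gene was taken. Over all 32817 windows of the same length 4.50% had one, and among the 11729 windows with a GC content inside the range of these genes (56.3 to 75%) 6.26% did. In Nfkbia the match began 29 bases before the start, in Rel 92 and 91 bases before it on overlapping positions, and in Nfkbie 106 bases before it. In Nfkb2 matches began 39, 38 and 11 bases before the first start, where the first pair overlap, and 236 bases before and 10 bases after the second start. The window of the other annotated Nfkb2 start, further downstream, holds the last of these matches and no other. In Bcl3 the match lay 2 bases after the start. Windows of Rela and Nfkbib held none. The Nfkbib window lies at the start of Nfkbib-201, which held 1.26% and 0.95% of that gene's TPM. The looser pattern GGGNNNNNCC, of which every consensus match is a case, was in 6 of the 7 genes and in 50.8% of all windows. A match describes letters only; binding was not measured.

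**Figure D1:**
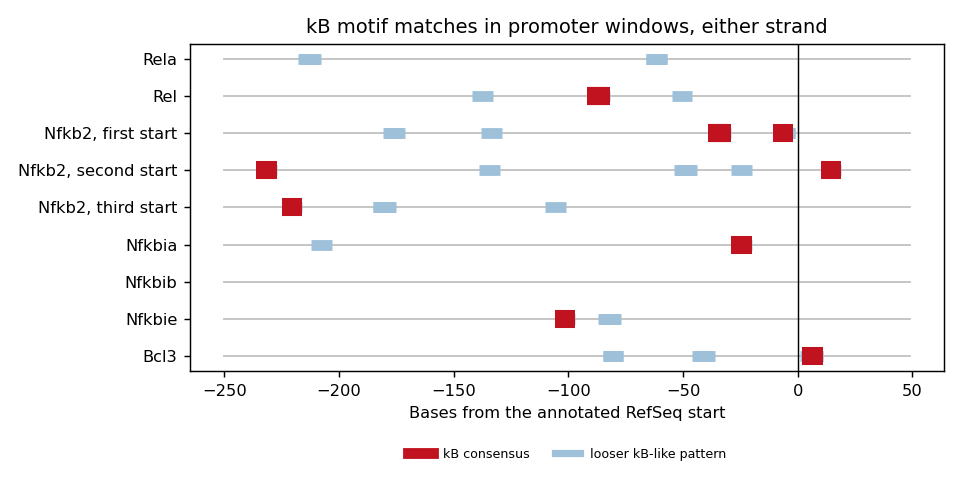
Matches to the kB consensus (red) and to the looser pattern (blue) on either strand, drawn against the distance in bases from each annotated RefSeq start, for the 9 windows of 7 genes. Red marks appear in 7 of the 9 windows and in none of Rela or Nfkbib.

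Transcripts of the 10 genes were abundant. All 10 genes reached 10 TPM in both libraries, a level that 27.2% of protein-coding genes reached, and 7 of them reached 100 TPM in both, as 5.2% of protein-coding genes did. The second count was 6 in a second quantification made directly from the reads, and 6 with protein-coding transcripts alone, because Rela was then at 98.2 and 86.1 TPM in replicate 1. All values for protein-coding transcripts alone belong to an alternative chosen after the values were seen. Nfkbia ranked highest in both libraries, above 97.9% and 97.8% of 9773 protein-coding genes at 1 TPM or more in both, and Rel ranked lowest in both, above 67.2% and 78.7%. In the order of mean TPM the genes ran Nfkbia, Nfkbiz, Rela, Nfkb1, Nfkbib, Nfkb2, Nfkbie, Relb, Bcl3, Rel. Only 3 of the 9 neighbouring pairs in that order had ranges over the 2 libraries that did not overlap: Nfkbia over Nfkbiz, Nfkbie over Relb, and Relb over Bcl3. The last of these was narrow, with the lower value of Relb at 63.97 TPM and the higher value of Bcl3 at 62.63 TPM. Relb and Bcl3 overlapped in the second quantification and with protein-coding transcripts alone, while the other separations held under both. From Nfkbiz to Nfkbie, 6 genes formed a middle tier in which no neighbours were separated. The place of Rela in this tier did not hold with protein-coding transcripts alone. Rela then stood at 86.1 and 111.0 TPM, and at 66.2 and 69.1 TPM in the second quantification, below each other gene of the tier in both libraries.

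**Figure D2:**
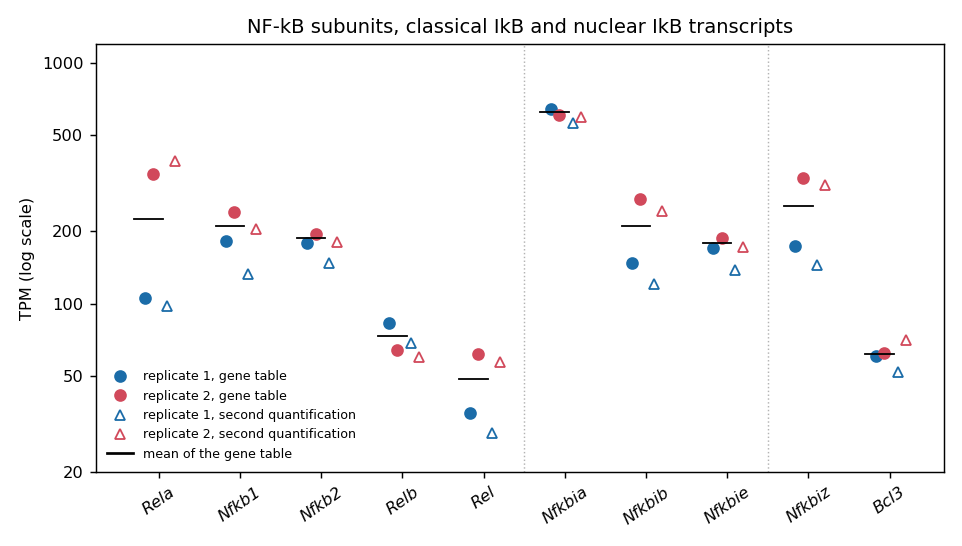
TPM on a log axis for the 10 genes, with filled circles for the gene table, open triangles for the second quantification and a bar at the mean of the gene table. Nfkbia stands apart at 644.2 and 609.1 TPM, while Rela, Nfkbib, Nfkbiz and Rel show the widest gaps between replicate 1 (blue) and replicate 2 (red).

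The subunit genes that encode precursors stood at similar levels. Nfkb1 (chromosome 3, 135584655 to 135691547, minus strand) encodes p105, which is processed to the DNA-binding subunit p50, and stood at 182.6 and 239.6 TPM (211 ± 40.3, SD, n = 2). Nfkb2 (chromosome 19, 46304320 to 46312385, plus strand) encodes p100, the precursor of p52 and itself an inhibitor of RelB dimers, and stood at 178.7 and 194.7 TPM (187 ± 11.3). Their ranges overlapped, and the ratio of Nfkb1 to Nfkb2 was 1.02 in replicate 1 and 1.23 in replicate 2. In replicate 1 it was below 1 in the second quantification (0.90) and with protein-coding transcripts alone (0.83). Part of the Nfkb2 locus is also annotated to other genes on the opposite strand, Psd at 11.3 and 9.86 TPM and AC114539.1 at 13.1 and 25.7 TPM. Whether counting used strand is not given in the sources used here, so some reads could belong to either.

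The subunits with a transactivation domain were less even. Rela (chromosome 19, 5637483 to 5648130, plus strand), which encodes p65, stood at 105.1 and 345.7 TPM (225 ± 170). Rel (chromosome 11, 23736847 to 23770970, minus strand), which encodes c-Rel, stood at 35.2 and 61.7 TPM (48.5 ± 18.8). Both were higher in replicate 2. Relb (chromosome 7, 19606217 to 19629438, minus strand), whose product is the main partner of p52 in the noncanonical pathway, stood at 83.3 and 63.97 TPM (73.6 ± 13.6) and was higher in replicate 1. Rel and Relb did not overlap, since the lowest Relb value exceeded the highest Rel value of 61.72 TPM. With protein-coding transcripts alone Relb stood at 81.2 and 55.5 TPM, and the ranges overlapped. As a share of the summed TPM of the 5 subunits, Rela held 17.98% in replicate 1 and 38.2% in replicate 2, Nfkb1 31.2% and 26.5%, Nfkb2 30.6% and 21.5%, Relb 14.2% and 7.06%, and Rel 6.02% and 6.81%. With protein-coding transcripts alone Rela held 16.5% and 18.3%, below Nfkb1 (27.7% and 31.3%) and Nfkb2 (33.5% and 30.9%) in both libraries. In the second quantification the share of protein-coding Rela was 15.7% and 13.1%.

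Of the classical inhibitors, IkBα was the main transcript in both libraries. Nfkbia (chromosome 12, 55489410 to 55492647, minus strand) stood at 644.2 and 609.1 TPM (627 ± 24.8). Nfkbie (chromosome 17, 45555703 to 45563169, plus strand), which encodes IkBε, stood at 170.5 and 187.8 TPM (179 ± 12.2). Nfkbib (chromosome 7, 28758251 to 28767512, minus strand), which encodes IkBβ, stood at 147.9 and 271.8 TPM (210 ± 87.7). Nfkbia and Nfkbie differed little between libraries, whereas Nfkbib was on either side of Nfkbie depending on the library. Nfkbia held 66.9% and 56.99% of the summed TPM of these 3 genes. Sirt2, which overlaps Nfkbib by 778 bases on the opposite strand, stood at 122.6 and 148.7 TPM, so reads from the shared stretch are uncertain.

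The nuclear IkB genes stood at different levels. Nfkbiz (chromosome 16, 55811375 to 55838899, minus strand), which encodes IkBζ, a cofactor that Il6 and other secondary response genes need, stood at 174.3 and 334.1 TPM (254 ± 113). Bcl3 (chromosome 7, 19808462 to 19822770, minus strand), whose product stabilises p50 and p52 homodimers on DNA, stood at 60.8 and 62.6 TPM (61.7 ± 1.30). The ranges did not overlap. Nfkbiz exceeded Bcl3 2.87-fold in replicate 1 and 5.33-fold in replicate 2.

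Transcripts of the classical IkB genes and of the subunits were set against each other within each library, since TPM is per length. Nfkb2 was counted as a subunit alone, although its product p100 is also an inhibitor. The 3 classical IkB genes summed to 962.6 and 1069 TPM (1016 ± 75.1) and the 5 subunits to 584.9 and 905.7 TPM (745 ± 227). Their ratio was 1.65 in replicate 1 and 1.18 in replicate 2 (1.41 ± 0.33). Classical IkB transcripts thus outnumbered subunit transcripts in both libraries, by unequal amounts. Nfkbia exceeded Rela 6.13-fold in replicate 1 and 1.76-fold in replicate 2. With protein-coding transcripts alone Nfkbia exceeded Rela 7.39-fold and 5.36-fold, and 8.17-fold and 8.02-fold in the second quantification. The ratio of the sums was then 1.82 and 1.74 (1.78 ± 0.06). In the second quantification it was 1.73 and 1.13 for whole genes and 1.89 and 1.83 for protein-coding transcripts. RNA ratios say nothing of the amounts of protein.

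Most of the Rela gap in TPM between libraries lay in short transcripts with no annotated protein. Rela-201, the one transcript with a complete reading frame (549 codons), stood at 86.1 and 111.0 TPM, a gap of 1.29-fold. Rela-203, annotated as a retained intron, stood at 17.1 and 165.3 TPM. Rela-207, annotated as a processed transcript, stood at 0.30 and 64.8 TPM, from 4.18 and 624 expected reads. The pair was low in replicate 1 and high in replicate 2, and made up 16.5% and 66.6% of the gene's TPM. In reads the same pair held 3.93% and 29.0% of the gene, because both models are short (786 and 728 bases against 2716 for Rela-201) and TPM divides by length. The leading Rela transcript was Rela-201 in replicate 1 and Rela-203 in replicate 2. Of all genes at 10 TPM in both libraries 11.8% changed leading transcript in this way, and among the 10 genes Rela alone did so in the main table. In the second quantification Relb did so too.

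Rela-207 shares 523 of its 728 bases with Rela-201 and has 205 that Rela-201 lacks. Rela-203 shares 751 of its 786 bases with Rela-201 and has 35 of its own, so few bases tell Rela-203 from Rela-201. Its first 59 bases are shown, with the intron in lower case and the start of the exon shared with Rela-201 in capitals (transcript sequence of GENCODE M21, assembly GRCm38).
Rela-203 start, chr19:5641146-5641204, plus strand: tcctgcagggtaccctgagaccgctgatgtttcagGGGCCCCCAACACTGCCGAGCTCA

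The second quantification put the Rela gap in the same transcripts. Rela-201 stood there at 66.2 and 69.1 TPM, a gap of 1.04-fold, and the short pair at 27.9 and 297.3 TPM. Transcripts with no protein-coding annotation made up 18.1% and 67.9% of Rela TPM in the main table and 32.6% and 82.3% in the second. Over 5990 protein-coding genes at 10 TPM in both libraries the median of this share was 2.01% in replicate 1 and 1.84% in replicate 2, and 18.03% and 2.77% of them had a share at least as high as that of Rela. Over the 10 genes the median share was 1.86% and 2.65%, near that of all genes.

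**Figure D3:**
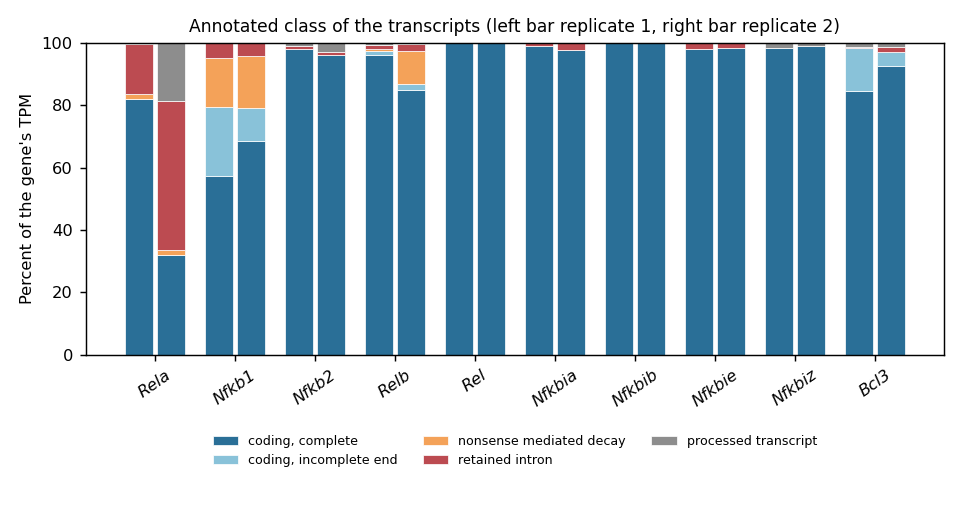
Percent of each gene's TPM by annotated transcript class, with replicate 1 on the left and replicate 2 on the right of each pair of bars. Retained intron and processed transcripts hold a larger percent of Rela in replicate 2, although its complete coding transcript was not lower there in TPM (86.1 and 111.0). Nfkb1 shows the largest share of models with an incomplete coding end or nonsense-mediated decay.

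Leading transcripts under 90% of the gene in either library were found in 6 of the 10 genes, against 63.7% of all genes at 10 TPM, a share near the background. Rel has a single annotated transcript of 7466 bases. Nfkbia-201 held 98.8% and 97.8% of its gene, Nfkbib-202 98.7% and 99.0%, and Nfkbie-201 94.7% and 91.2%. For Nfkbie the other model above 5% in a library was Nfkbie-203, at 3.28% and 6.95%, with 371 codons in place of 364. Bcl3-201 held 84.6% and 92.5%, and Bcl3-203, a model without its upstream end, 13.7% and 4.42%. For Relb, Relb-202 held 87.8% and 72.8%, Relb-201 5.93% and 11.3%, and Relb-210, annotated for nonsense-mediated decay, 0.57% and 10.7%. The split within Relb was not settled by the data, because the second quantification gave Relb-203, which differs from Relb-202 by 2 added and 8 missing bases, 43.0% and 44.2% of the gene.

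The main Nfkbiz transcripts begin at separate first exons and encode proteins of different length. The long form of 728 codons, carried by Nfkbiz-204 in both libraries, stood at 119.6 and 188.1 TPM (154 ± 48.4), and the short form of 629 codons, carried mainly by Nfkbiz-203, at 51.6 and 142.8 TPM (97.2 ± 64.5). Both forms were higher in replicate 2, the long one 1.57-fold and the short one 2.77-fold on the TPM scale, and their ranges overlapped. The ratio of long to short was 2.32 in replicate 1 and 1.32 in replicate 2. The second quantification gave 2.17 and 1.16, so the long form led in both libraries and by both methods. The first 30 coding bases of the long form, which the short form does not translate, are shown with the start codon in capitals.
Nfkbiz-204 first coding bases, chr16:55822024-55822053, minus strand: ATGatcgtggacaagctgctggacgacagc

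Transcripts of Nfkb2 that begin upstream and those that begin at the second start encode the same p100 protein of 899 codons, apart from Nfkb2-206 with 878. Nfkb2-201, which begins 7 bases from the first RefSeq start printed above, stood at 123.8 and 106.2 TPM. Nfkb2-202, which begins 1 base from the second, stood at 44.2 and 64.1 TPM, and Nfkb2-206 at 6.77 and 11.3 TPM. Nfkb2-201 was higher in replicate 1 and Nfkb2-202 in replicate 2, and their ranges did not overlap. Together the 3 upstream models held 73.3% and 63.2% of the gene. The ratio of upstream to downstream starts was 2.96 and 1.92, against 1.84 and 1.29 in the second quantification, so the size of the excess depended on the method while its direction did not.

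Nfkb1 was divided among models with complete and with incomplete 5′ ends. Complete models of 971 codons, Nfkb1-201 and Nfkb1-206, stood together at 104.8 and 164.1 TPM, which is 57.4% and 68.5% of the gene. Nfkb1-203 and Nfkb1-207, whose annotated 5′ ends are missing and which lie wholly within the exons of Nfkb1-201, stood together at 67.2 and 65.1 TPM, or 36.8% and 27.2%. In the second quantification the complete models stood at 99.8 and 171.1 TPM, and the incomplete pair at only 17.3 and 8.76 TPM. The complete transcripts of Nfkb1 were thus close under both methods, while the level of the incomplete ones was not settled.

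**Figure D4:**
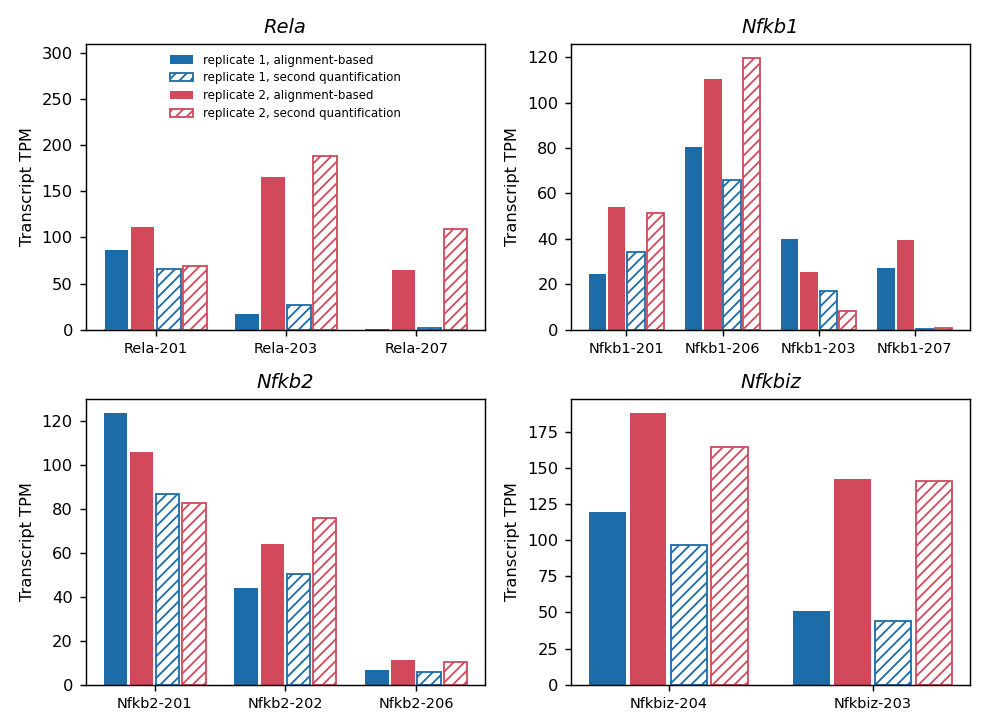
TPM of the main transcripts of Rela, Nfkb1, Nfkb2 and Nfkbiz in replicate 1 (blue) and replicate 2 (red), with solid bars for the alignment-based table and hatched bars for the second quantification. Rela-203 and Rela-207 are high in replicate 2 alone by both methods, and Nfkb1-207 is near 0 in the second quantification.

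The spread between replicates was also taken from expected counts, scaled by the TMM method of edgeR, as the log2 ratio of replicate 2 to replicate 1. It ran from -0.42 for Relb to 0.96 for Nfkbiz, with a median of 0.31 over the 10 genes. The median was -0.03 over the 12552 genes whose mean reached 10 reads. Of the 10 genes, 8 were higher in replicate 2, as were 48.2% of all genes. Libraries were 1.5-fold or more apart for 4 genes, all higher in replicate 2, where 13.5% of all genes were that much higher, and in 0 of the 10 in the other direction, where 16.7% were. In both directions together the background was 30.2%, and 24.5% among genes whose mean reached 100 reads. The 4 genes were Nfkbiz (1.94-fold), Nfkbib (1.85-fold), Rela (1.78-fold) and Rel (1.75-fold), and none reached 2-fold. On the TPM scale Rela was 3.29-fold apart, whereas its complete coding transcript was 1.29-fold apart. The other 6 genes differed by 1.06-fold (Nfkbia) to 1.39-fold (Nfkb1), beside a median of 1.29-fold over all genes. With 2 libraries of a single group these ratios describe the libraries, and no test was made. Neutrophil markers, summed at 63.5 and 6.58 TPM, differed the other way, with all 4 that had enough reads at least 1.5-fold higher in replicate 1 and Elane at 0 reads in replicate 2, and their part in these ratios was not tested.

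**Figure D5:**
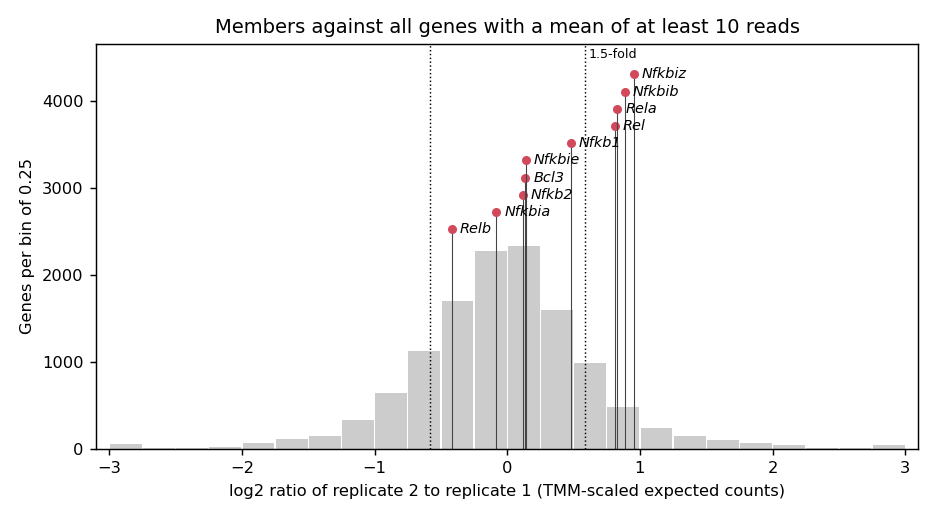
Distribution over 12552 genes of the log2 ratio of replicate 2 to replicate 1 (grey bars, bins of 0.25, with values beyond 3 in the end bins), with the 10 genes marked at arbitrary heights and dotted lines at 1.5-fold. Rel, Rela, Nfkbib and Nfkbiz lie to the right of the upper line, and none lies to the left of the lower one.

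The rest of the pathway was read from lists chosen by function, with earlier results of these data known. Of 64 genes in 6 lists, 49 reached 10 TPM in both libraries, beside 27.2% of protein-coding genes. Differences of at least 1.5-fold were found in 13 with the higher value in replicate 2 and in 8 with it in replicate 1, beside 13.5% and 16.7% of all genes. In the list of IKK complex members, related kinases and their adaptors, 8 of 10 reached 10 TPM. They were led by Ikbke at 232 ± 11.3 TPM, Tab2, an adaptor of the kinase TAK1, at 85.0 ± 48.9 TPM, Tbk1 at 82.4 ± 16.6 TPM and Ikbkb, the IKKβ subunit, at 53.6 ± 3.05 TPM. Ikbkb exceeded the other core subunits in both libraries: Chuk, the IKKα subunit, stood at 22.9 and 15.5 TPM, and Ikbkg, the scaffold NEMO, at 17.8 and 23.8 TPM (both named after their values were seen).

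In the noncanonical pathway, which releases p52 from p100, 6 of 8 genes reached 10 TPM. The receptor Cd40 stood at 274.8 and 683.6 TPM, the ubiquitin ligase Birc3 at 163 ± 4.46 TPM, the lymphotoxin receptor Ltbr at 47.6 ± 6.33 TPM and Traf2 at 34.2 ± 14.2 TPM. Map3k14, the kinase NIK that starts the pathway, had the lowest mean of the list, at 6.83 and 7.37 TPM, and was named after its values were seen. Of genes that degrade IkB, 7 of 9 reached 10 TPM, with the ubiquitin-conjugating enzyme Ube2d3 at 642 ± 375 TPM, Nedd8 at 110 ± 34.3 TPM, the ligase subunit Rbx1 at 69.8 ± 22.6 TPM and the substrate receptor Fbxw11 at 69.2 ± 6.00 TPM. Of 12 nuclear regulators of p65 or NF-kB 7 did so, among them Hdac1 at 58.4 ± 3.24 TPM, Rnf25 at 52.8 ± 2.40 TPM and Commd1 at 45.5 ± 12.2 TPM.

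Other IkB-related genes, apart from Nkiras2, were scarce beside the 10 genes. Only Nkiras2, which encodes a small GTPase that binds IkB, reached 10 TPM in both libraries among 5 genes. It stood at 49.9 ± 14.2 TPM, near Rel at 48.5 ± 18.8 TPM. Nfkbil1 was at 10.4 ± 2.60 TPM and Nkiras1 at 5.53 ± 1.85 TPM. Nfkbid, which encodes the nuclear protein IkBNS, stood at 4.78 and 7.53 TPM, below the lowest value of Bcl3 in both libraries. Ankrd42 was under 1 TPM in both, at 0.38 and 0.41 TPM.

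All 20 feedback and target genes of NF-kB reached 10 TPM, with the chemokines Ccl4 and Ccl3, the cytokine Tnf and the dismutase Sod2 highest, at means of 2205, 1966, 1131 and 888 TPM. Of these 20, 7 were at least 1.5-fold higher in replicate 2 (Il12b, Il6, Cxcl1, Ptgs2, Il1b, Tnip1 and Cxcl2, named after their values were seen), and 0 were in replicate 1, beside the 13.5% and 16.7% of all genes given above. Their ratios ran from 1.64-fold for Cxcl2 to 4.58-fold for Il12b.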

How the data were processed

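Libraries of polyA plus RNA were quantified by the authors against mouse mm10 and GENCODE M21, per the notes deposited with each sample. The deposited gene table gives expected counts, deposited TPM and deposited FPKM, from alignments to the transcriptome. The deposited transcript table adds the percent of a gene held by each transcript. A second deposited transcript table, made directly from the reads, gives estimated counts and TPM and was summed to genes; 86 genes without a value were set to 0. The sources used here do not give program names. Of 81881 rows, 26345 (numeric identifiers and spike-ins, 0.0788% and 0.0771% of counts) were left out.

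Members were mapped by symbol to gene identifiers, and all 106 listed symbols were measured. Members and lists were chosen with earlier results of these data known. To form ratios between libraries, 0.5 reads were added to each expected count and sizes were set by TMM on rounded counts in edgeR 4.0.16, with DESeq2 1.42.0 size factors as an alternative. Each value is a mean ± SD of 2 libraries, and counting error is a lower limit. Both libraries share a donor identifier, so their spread may be technical. No hypothesis was tested. The text names the 10 members, the 4 highest genes of each pathway list (1 of them is not reported here) with any under 1 TPM in both libraries, and each transcript of at least 5% of its gene. Overlapping genes were read from the annotation, and promoter sequences from RefSeq.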

Additional observations from a re-analysis of the deposited data

How the results depend on the processing

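All 10 genes stayed at or above 10 in both libraries with the second quantification, with FPKM and with TPM rescaled to nuclear protein-coding genes. All 10 also reached 20 TPM in both. The same count at 5 TPM and in either library alone follows from the main count and adds nothing to it. The ratio of classical IkB to subunit TPM, 1.41, was 1.43 with the second quantification, and 1.18 to 1.65 with 1 library left out. With protein-coding transcripts only, an alternative chosen after seeing the data, it was 1.78, and 1.86 in the second quantification. The alternative leaves out every transcript of these genes with no protein-coding annotation. In replicate 2 the subunit sum was then 605.1 in place of 905.7 TPM, with Rela at 111.0 in place of 345.7 TPM. In replicate 1 it was 522.6 in place of 584.9 TPM, with Nfkb1 at 144.85 in place of 182.58 TPM and Rela at 86.1 in place of 105.1 TPM. The classical IkB sum was 951.4 and 1052 in place of 962.6 and 1069 TPM. The count of genes at least 1.5-fold apart, 4, was 4 under every scaling tried and in the second quantification, and 0 at a limit of 2-fold. With the ratio of TPM the count at 2-fold was 1, Rela, at a log2 ratio of 1.72, and it was 0 under each other scaling. Filters on read counts could not change these counts, because all 10 genes passed each of them. The median log2 ratio over all 10 genes was between 0.25 and 0.33. Without a filter on low counts the median over all genes was 0.56, against -0.03 with it. The count with a leading transcript under 90%, 6, was 5 or 6 with 1 library left out and 5 at a limit of 80%, and the 49 pathway genes at 10 TPM became 56 at 5 TPM and 42 at 20 TPM. Of 225 recalculated values for single genes, 29 moved by more than the spread between replicates or, for log2 ratios, by 0.1 or more. None of the ratios called at 1.5-fold changed sign. Many of the other values could not move. Leaving out 1 library shifts a mean by less than the SD of 2 libraries, by arithmetic. Filters on read counts left the ratios of all 10 genes as they were, and FPKM scaled to the TPM total returned nearly the same levels. Ratios between libraries cannot be recomputed with 1 library left out. Counting error was at most 2.25% for the whole-gene value of any of the 10 genes, and is larger for transcripts with few reads.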
